A study of Solanum lycopersicum with 6 samples.

Results

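The SEPALLATA-class MADS-box genes of tomato were followed in axillary buds, which develop into side shoots at the base of leaves. The genes are TM29, J2, EJ2, TM5, LIN and RIN, taken by locus identifier and chosen with earlier results of these data known. They are 6 of the 25440 loci in the deposited table and take up 9 of its 31139 rows, since TM29, EJ2 and LIN have 2 rows each, which were summed. Buds of a cultivar labelled compound raceme (libraries titled BJ) were compared with buds of a cultivar labelled monomaker (libraries titled WT), with 3 libraries of total RNA each. The plants grew in a greenhouse. The labels give no allele, treatment, age or bud stage for either cultivar, and are silent on whether a cultivar's libraries stem from different plants; p-values therefore cover only library-to-library spread, which may be technical.

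SEPALLATA-class proteins are transcription factors that assemble with other MADS-domain proteins into larger complexes on DNA. In flowers they are needed for sepals, petals, stamens and carpels to take their identity and for the floral meristem to stop growing. In tomato, J2 and EJ2 act together in the maturation of the inflorescence meristem, so that their joint loss branches the inflorescence. J2 alone is known for the pedicel joint and EJ2 for sepal size. LIN is their close relative and acts with them on inflorescence length and branching. TM5 is the SEPALLATA3-like member, known for the inner floral whorls. TM29 is known for floral and early fruit development, and RIN for fruit ripening.

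Transcript levels are given as FPKM, fragment numbers scaled by transcript length and library size, as the authors deposited them. The depth of the libraries is unknown without counts. The FPKM summed to between 674654 and 687303 in compound raceme libraries and to between 717108 and 750250 in monomaker libraries. Fold changes give compound raceme minus monomaker as log2(FPKM + 1), a scale that compresses the change of genes with low values. They were tested with limma, and p-values were adjusted over all 18802 loci that averaged at least 1 FPKM. Over these loci the median log2 fold change was 0.04. TM29, J2, EJ2, TM5 and LIN passed that minimum. TM29, J2, TM5 and LIN passed it only through their monomaker level, and a gene that passes in that way had to differ, so the number tested or called carries no weight as a result about the class. RIN did not pass. Over all tested loci, which are not independent replicates, monomaker 1 resembled compound raceme 1 (Pearson correlation 0.952) more than monomaker 2 (0.935) or monomaker 3 (0.917), so values without monomaker 1 are given further on.

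TM29, J2, EJ2 and TM5 fell in compound raceme buds, LIN had lower values there without being called, and RIN was near 0 in both cultivars. The test called 4 of the 5 tested genes lower and 0 higher at an adjusted p below 0.05 (limma), against 2.52% of all tested loci called lower and 0.75% called higher. The cultivars did not overlap at any of the 5, all lower in compound raceme, against 15.3% of all tested loci not overlapping in that direction. Of 16 alternative settings, TM29, TM5 and J2 were each called by limma in 11 and EJ2 in 5. In bulk buds, fewer cells that express a gene and less RNA per cell cannot be told apart.

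**Figure D1:**
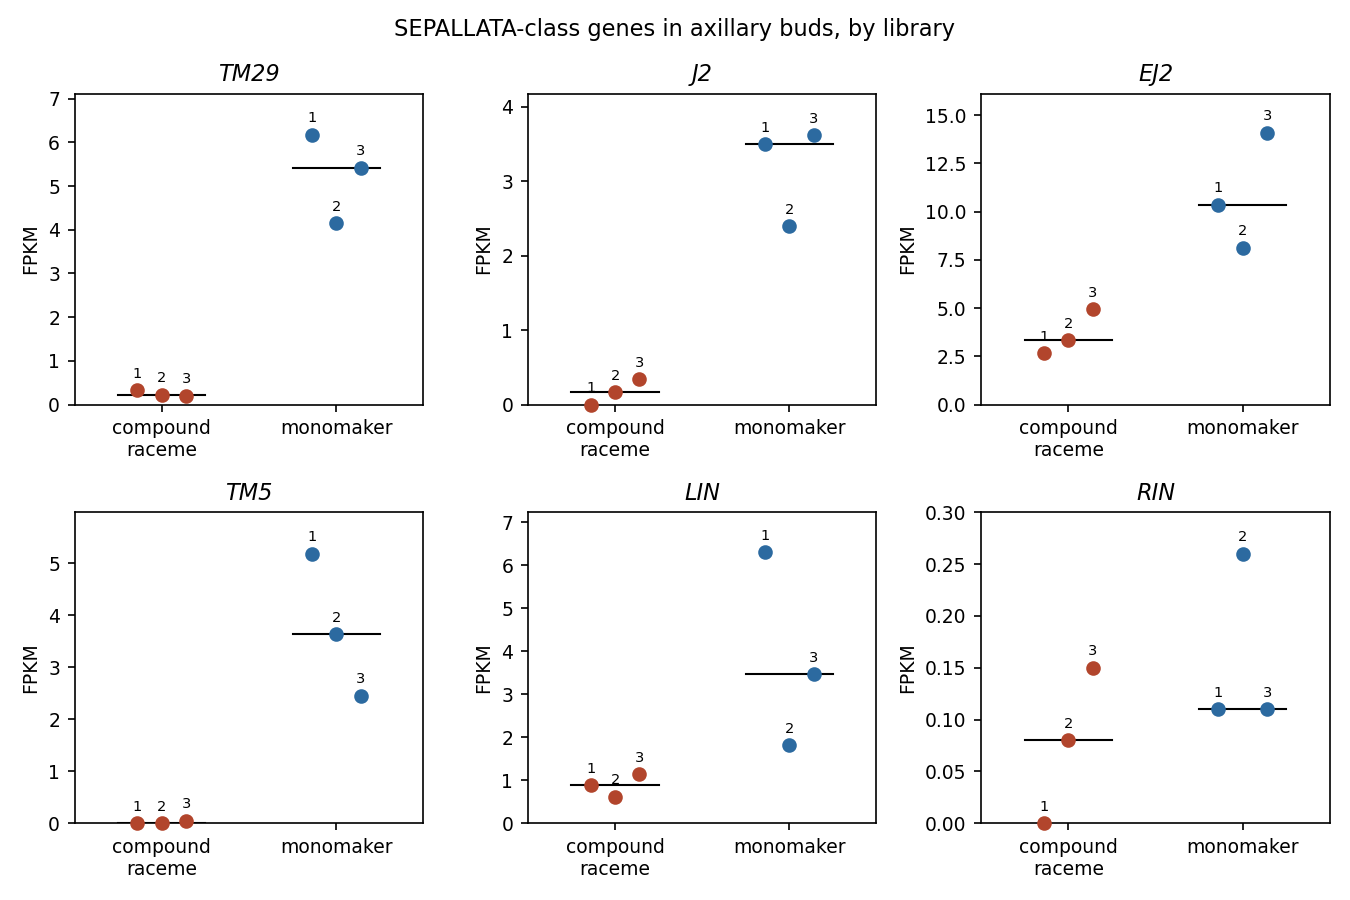
FPKM of each SEPALLATA-class gene (y axis, from 0, with its own scale in each panel) in the 3 compound raceme libraries (left) and the 3 monomaker libraries (right). Numbers are the library numbers and the bar is the median of each cultivar. The compound raceme points lie below all monomaker points in every panel except that of RIN, where the highest compound raceme value, 0.15 FPKM, exceeds 2 monomaker values of 0.11 FPKM.

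TM29 (Solyc02g089200) had the largest fold change of the class on this scale, whereas with a pseudocount of 0.1 in place of 1 that of TM5 was larger (-5.01, against -3.92 for TM29). Its row with coordinates lies on chromosome 2, 51712263 to 51718095 of SL3.0, on the plus strand. TM29 had 0.33, 0.23 and 0.20 FPKM in compound raceme 1 to 3, against 6.17, 4.15 and 5.42 FPKM in monomaker 1 to 3. Every compound raceme library lay below 1 FPKM, and the lowest monomaker library had 4.15 FPKM. The mean was 0.253 ± 0.0681 FPKM in compound raceme, against 5.25 ± 1.02 FPKM in monomaker (SD, n = 3 each), which is 20.7-fold lower in compound raceme as a ratio of mean FPKM. The log2 fold change was -2.31 (SE 0.21, limma adjusted p = 0.0184). In rank among all loci, TM29 stood at percentile 17.8 of mean FPKM in compound raceme and at percentile 44.9 in monomaker.

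TM5 (Solyc05g015750, chromosome 5) was the gene closest to absent in compound raceme. It showed listed values of 0, 0 and 0.05 FPKM in compound raceme 1 to 3, against 5.18, 3.63 and 2.45 FPKM in monomaker 1 to 3. A value of 0 says only that the locus is listed at 0, so no fold of FPKM is given. On the log2(FPKM + 1) scale the change was -2.18 (SE 0.26, limma adjusted p = 0.0193). TM5 ranked at percentile 5.83 in compound raceme and at percentile 39.8 in monomaker, next to LIN at percentile 40.2.

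J2 (Solyc12g038510, chromosome 12) followed the same direction. It showed listed values of 0, 0.17 and 0.34 FPKM in compound raceme 1 to 3, against 3.50, 2.40 and 3.62 FPKM in monomaker 1 to 3. The highest compound raceme library did not reach the lowest monomaker library. The log2 fold change was -1.83 (SE 0.24, limma adjusted p = 0.0214).

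EJ2 (Solyc03g114840) was the most abundant gene of the class in every library and fell by less than TM29, TM5 and J2 on the log2 scale. Its row with coordinates lies on chromosome 3, 66198734 to 66205172 of SL3.0, on the minus strand. EJ2 had 2.67, 3.34 and 4.93 FPKM in compound raceme 1 to 3, against 10.36, 8.12 and 14.08 FPKM in monomaker 1 to 3. It thus remained detected in all 3 compound raceme libraries, with a gap between 4.93 FPKM in the highest of these and 8.12 FPKM in the lowest monomaker library. The mean was 3.65 ± 1.16 FPKM in compound raceme, against 10.9 ± 3.01 FPKM in monomaker (SD, n = 3 each), 2.98-fold lower in compound raceme. The log2 fold change of -1.35 (SE 0.26) had an adjusted p of 0.0454 in limma, just below the threshold. The call ended without a filter (limma adjusted p = 0.0769), with quantile normalization (0.0538), with median scaling (0.0534) and with the rows as deposited (0.0752).

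LIN (Solyc04g005320) had lower values in compound raceme but did not pass the test. Its row with coordinates lies on chromosome 4, 228281 to 233422 of SL3.0, on the minus strand. LIN had 0.88, 0.62 and 1.14 FPKM in compound raceme 1 to 3, against 6.30, 1.81 and 3.47 FPKM in monomaker 1 to 3. The cultivars did not overlap, and the monomaker libraries spread widely, monomaker 1 being the highest. The mean was 0.88 ± 0.26 FPKM in compound raceme, against 3.86 ± 2.27 FPKM in monomaker (SD, n = 3 each). The log2 fold change was -1.27 (unadjusted 95% confidence interval -2.13 to -0.42, limma adjusted p = 0.101).

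RIN (Solyc05g012020, chromosome 5) showed listed values of 0, 0.08 and 0.15 FPKM in compound raceme 1 to 3, against 0.11, 0.26 and 0.11 FPKM in monomaker 1 to 3. The cultivars overlapped, and the gene was too low for the test. RefSeq (assembly SLM_r2.1) lists MADS-MC, an APETALA1-class gene, beside RIN on chromosome 5. The listed locus just before RIN is Solyc05g012010, which is not named in the sources used here and is not taken as MADS-MC. It had 2.75, 4.46 and 4.64 FPKM in compound raceme 1 to 3, against 3.80, 3.85 and 2.45 FPKM in monomaker 1 to 3 (limma adjusted p = 0.676).

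Ordered by median FPKM, the class read EJ2 (3.34), LIN (0.88), TM29 (0.23), J2 (0.17), RIN (0.08) and TM5 (0) in compound raceme. In monomaker it read EJ2 (10.4), TM29 (5.42), TM5 (3.63), J2 (3.50), LIN (3.47) and RIN (0.11). In compound raceme, EJ2 and LIN were each separated from the next gene in the order, since their lowest library exceeded the highest library of that gene. TM29, J2, RIN and TM5 overlapped with their neighbours in the order there. In monomaker, EJ2 lay above all libraries of TM29, and J2 and LIN lay above RIN, whereas TM29 overlapped with TM5, TM5 with J2, and J2 with LIN.

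EJ2 made up most of the class's FPKM in compound raceme and between 32.8% and 48.3% of it in monomaker. FPKM of the 6 genes summed to 3.88, 4.44 and 6.81 in compound raceme 1 to 3, against 31.6, 20.4 and 29.1 in monomaker 1 to 3. EJ2 made up 68.8%, 75.2% and 72.4% of this sum in compound raceme 1 to 3, against 32.8%, 39.9% and 48.3% in monomaker 1 to 3. TM29 made up 5.54 ± 2.80% in compound raceme and 19.5 ± 0.89% in monomaker (SD, n = 3 each).

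J2 held 0%, 3.83% and 4.99% of the sum in compound raceme 1 to 3, against 11.1%, 11.8% and 12.4% in monomaker 1 to 3. TM5 held 0%, 0% and 0.734% in compound raceme 1 to 3, against 16.4%, 17.8% and 8.40% in monomaker 1 to 3. The shares of EJ2, TM29, J2 and TM5 did not overlap between the cultivars. LIN held 17.8 ± 4.45% in compound raceme and 13.6 ± 5.70% in monomaker (SD, n = 3 each), and these overlapped. Shares were compared for 6 genes with a two-sided exact permutation test. This exact permutation test gave p = 0.1 for EJ2, TM29, J2 and TM5, the smallest p that 3 against 3 libraries allow, and p = 0.4 for LIN and RIN. After Benjamini-Hochberg adjustment over the 6 genes, the permutation p was 0.15 for EJ2, TM29, J2 and TM5. Shares sum to 100% in each library, so a higher share of EJ2 is tied to lower shares of the other genes.

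**Figure D2:**
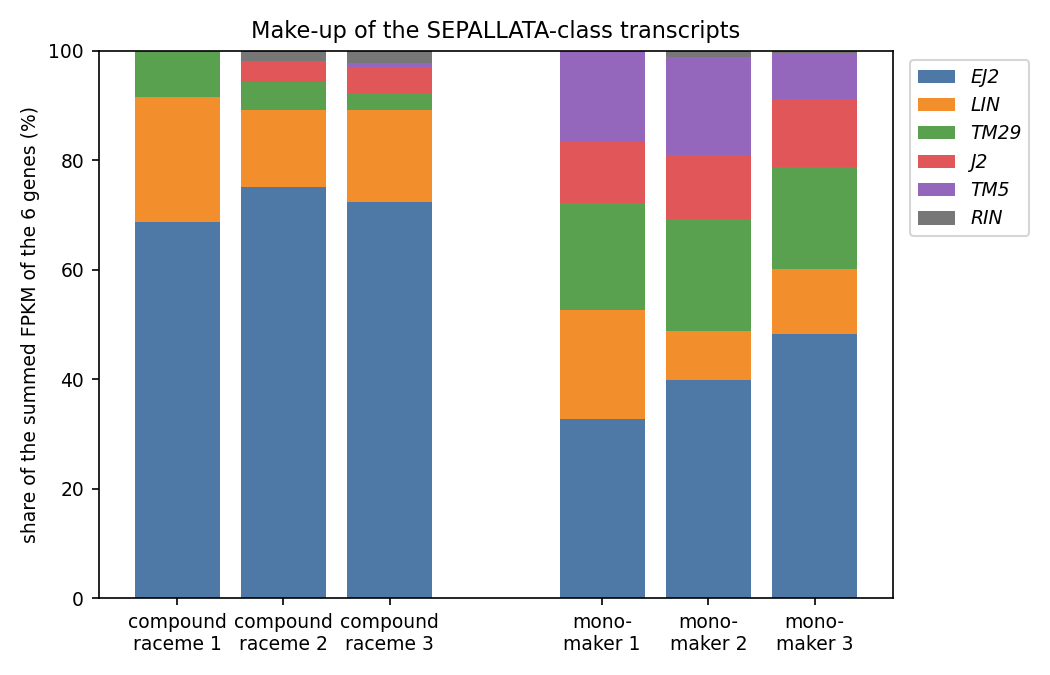
Share of each SEPALLATA-class gene in the summed FPKM of the 6 genes (y axis, percent), 1 bar for each library, with compound raceme libraries left of monomaker libraries. EJ2 takes 68.8% to 75.2% of the bar in compound raceme libraries and 32.8% to 48.3% in monomaker libraries.

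The fold changes of the genes were compared in pairs. Of the 10 pairs that the 5 tested genes form, 5 had a difference in log2(FPKM + 1) that did not overlap between the cultivars. The same share over pairs of all loci was not worked out. TM29, J2, TM5 and LIN were tested only through their monomaker level, so this count carries no weight as a result about the class. TM29 minus EJ2 was -1.46, -1.82 and -2.30 in compound raceme 1 to 3, against -0.66, -0.82 and -1.23 in monomaker 1 to 3. The fold change of TM29 was thus lower than that of EJ2 by 0.96 on the log2 scale (exact permutation test, two-sided, p = 0.1). J2 minus EJ2 also did not overlap (difference of fold changes -0.48), nor did TM29 minus J2 (-0.47), TM29 minus LIN (-1.03) and TM5 minus LIN (-0.91), each with an exact permutation p = 0.1. The separation of TM29 minus J2 was lost with a smaller pseudocount, at -0.45 (exact permutation p = 0.3) with 0.5 and -0.10 (p = 0.9) with 0.1 in place of 1. With a pseudocount of 0.1 the differences were -2.36 for TM29 minus EJ2, -2.26 for J2 minus EJ2, -2.04 for TM29 minus LIN and -3.13 for TM5 minus LIN, so their size depends on that choice. With 3 against 3 libraries no pair could pass 0.05. After Benjamini-Hochberg adjustment over the 12 pairs compared, the exact permutation p of each pair that did not overlap was 0.171.

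EJ2 minus LIN and TM29 minus TM5 overlapped, with differences of fold changes of -0.08 and -0.12 (exact permutation p = 0.9 each). Both changed sign with a pseudocount of 0.5 in place of 1, to 0.08 and 0.07. J2 minus TM5 (0.35), J2 minus LIN (-0.56) and EJ2 minus TM5 (0.84) overlapped as well, with exact permutation p of 0.4, 0.3 and 0.3. With a pseudocount of 0.1, EJ2 minus TM5 was 3.45 and J2 minus LIN -1.94, both at an exact permutation p = 0.1, and J2 minus TM5 was 1.19 (p = 0.2); with 0.5, EJ2 minus TM5 was 1.54 (p = 0.1).

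The rows that make up a gene did not move alike in every library. TM29's row with coordinates showed listed values of 0, 0.23 and 0 FPKM in compound raceme 1 to 3, against 5.86, 2.78 and 3.45 FPKM in monomaker 1 to 3. Its other row had 0.33, 0 and 0.20 FPKM in compound raceme, against 0.31, 1.37 and 1.97 FPKM in monomaker. In that row monomaker 1 lay within the compound raceme range, although monomaker 1 had the highest value in the first row. With only the rows without coordinates, the difference in TM29's share of the class was -0.182 percentage points (compound raceme minus monomaker), against -14.0 with both rows.

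EJ2's rows both separated the cultivars. The row with coordinates had 1.81, 2.35 and 3.12 FPKM in compound raceme 1 to 3, against 5.54, 5.15 and 9.97 FPKM in monomaker 1 to 3. The other row had 0.86, 0.99 and 1.81 FPKM in compound raceme, against 4.82, 2.97 and 4.11 FPKM in monomaker. The row with coordinates held 63.3% to 70.4% of EJ2 in compound raceme libraries and 53.5% to 70.8% in monomaker libraries, so this split overlapped.

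LIN's high value in monomaker 1 came from 1 row. The row without coordinates had 4.74 FPKM in monomaker 1, against 0.36 and 2.29 FPKM in monomaker 2 and 3, and 0.42, 0.39 and 0.47 FPKM in compound raceme 1 to 3. Monomaker 2 was thus below all 3 compound raceme libraries in that row. In the row with coordinates the cultivars were apart, at 0.46, 0.23 and 0.67 FPKM in compound raceme, against 1.56, 1.45 and 1.18 FPKM in monomaker. The sources used here do not say what distinguishes the rows of a locus.

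**Figure D3:**
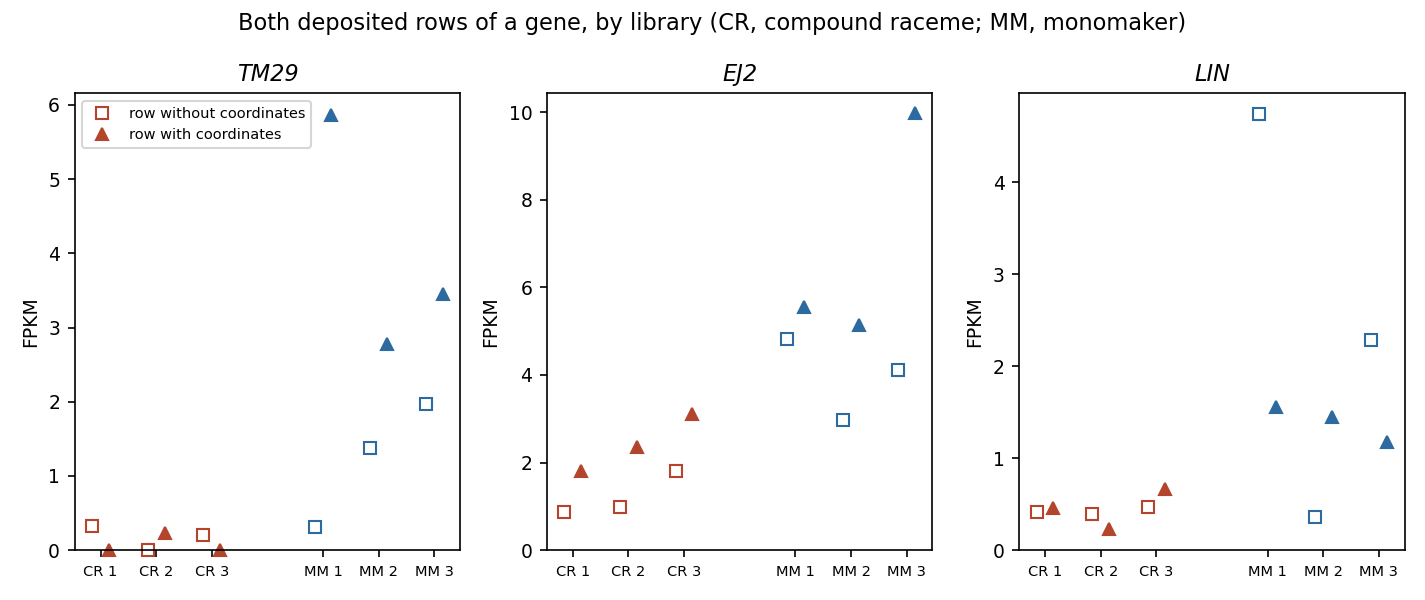
FPKM (y axis, from 0) of both deposited rows of TM29, EJ2 and LIN in each library, with compound raceme (CR) left of monomaker (MM). Open squares are rows without coordinates and filled triangles rows with coordinates. The LIN square of monomaker 1 stands at 4.74 FPKM, and that of monomaker 2, at 0.36 FPKM, lies below the compound raceme squares.

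The authors' deposited table also holds a log2 ratio and a q-value for each row. Of the 9 SEPALLATA-class rows, 5 had a q below 0.05 and a ratio below 0, against 6.63% of all rows. At that q, 0 of the 9 had a ratio above 0, against 3.54% of all rows. Both rows of EJ2 are among the 5. The genes were chosen with earlier results of these data known, so these counts carry no weight as a result about the class. In the authors' deposited table the ratio was -5.45 for TM5 (q = 1.74e-13), -4.32 for TM29's row with coordinates (q = 1.72e-08) and -3.42 for J2 (q = 4.61e-06). EJ2's rows had -1.46 (q = 0.0115) and -1.62 (q = 0.00367) in the authors' deposited table. The rows of LIN, with q of 0.108 and 0.0597, TM29's other row (q = 0.157) and RIN (q = 0.799) did not reach 0.05 in the authors' deposited table.

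Other MADS-box genes were taken from a list of SEPALLATA partners and relatives. Of the 11 of them that were tested, 1 fell and 0 rose by limma, against 2.52% and 0.75% of all tested loci. At an unadjusted p below 0.05, 5 had lower and 2 higher values, against 14% and 11.7% of all tested loci. The median log2 fold change was 0.05, close to 0.04 over all tested loci. TPI, TAP3 and TPIB passed the minimum only through their monomaker level, so these counts and the median carry no weight as a result about the list. In the authors' deposited table, 6 of the list's 16 rows had q below 0.05 and a ratio below 0, against 6.63% of all rows. They were TPI (q = 4.22e-08), TPIB (1.1e-05), TAP3 (1.61e-05), MBP10 (0.011), MBP20 (0.0241) and FUL2 (0.0254). TM6 alone had a ratio above 0 at that q (0.0448), against 3.54% of all rows. The list was chosen with earlier results of these data known, so this count carries no weight either. FUL2 and MBP20, FRUITFULL-class genes, are the nearest in position, since MBP20 is the next locus after TM29 and FUL2 the last before EJ2.

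MBP20 (Solyc02g089210) starts 7960 bases after the end of TM29's row. It had 8.03, 5.97 and 10.09 FPKM in compound raceme 1 to 3, against 14.52, 13.80 and 24.89 FPKM in monomaker 1 to 3. The cultivars did not overlap, but MBP20 was not called (log2 fold change -1.03, limma adjusted p = 0.0903). TM29 minus MBP20 did not overlap either, and the fold change of TM29 was lower by 1.28 on the log2 scale (exact permutation p = 0.1; difference -2.81 with a pseudocount of 0.1).

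FUL2 (Solyc03g114830) had 9.95, 14.77 and 15.02 FPKM in compound raceme 1 to 3, against 25.05, 20.20 and 33.91 FPKM in monomaker 1 to 3 (log2 fold change -0.93, limma adjusted p = 0.0846). EJ2 minus FUL2 was close to constant over the monomaker libraries, at -1.20, -1.22 and -1.21, and was -1.58, -1.86 and -1.43 in compound raceme 1 to 3. EJ2's fold change was thus lower than that of FUL2 by 0.42 on the log2 scale, without overlap (exact permutation p = 0.1). The nearest 3 loci on either side of the 6 genes came to 36, of which 31 were tested and 0 called by limma, against 3.27% of all tested loci called in either direction. Of the 31, 2 had lower and 3 higher values at an unadjusted limma p below 0.05, against 14% and 11.7% of all tested loci, which is no result about the neighbours. The lowest adjusted p among them was that of FUL2, and their median log2 fold change was 0.10.

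Among genes of petal and stamen identity (B class), which work in complexes with SEPALLATA proteins, TPI (Solyc06g059970) fell. It had 0.24, 0.06 and 0.36 FPKM in compound raceme 1 to 3, against 2.89, 4.30 and 4.59 FPKM in monomaker 1 to 3 (log2 fold change -2.0, limma adjusted p = 0.0193). TAP3 (Solyc04g081000) showed listed values of 0, 0.10 and 0 FPKM in compound raceme, against 1.28, 3.73 and 1.26 FPKM in monomaker (limma adjusted p = 0.0671). TPIB (Solyc08g067230) had 0.23, 0.14 and 0.15 FPKM in compound raceme, against 1.94, 3.74 and 1.20 FPKM in monomaker (limma adjusted p = 0.0639).

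TPI, TAP3 and TPIB averaged below 1 FPKM in compound raceme, so each had to differ to be tested. The cultivars did not overlap at any of them, against 15.3% of all tested loci not overlapping in that direction. Since each had to differ, this carries no weight as a result about the B class. The sum of TPI, TAP3 and TPIB ran from 0.30 to 0.51 FPKM in compound raceme and from 6.11 to 11.8 FPKM in monomaker. TM6 (Solyc02g084630), the remaining B-class gene, had higher values in compound raceme, at 49.45, 80.11 and 66.04 FPKM, against 31.07, 40.98 and 36.18 FPKM in monomaker, and was not called (limma adjusted p = 0.0842). The carpel and stamen identity gene TAG1 (Solyc02g071730; C class) overlapped, at 2.54 ± 0.491 FPKM in compound raceme, against 2.38 ± 0.356 FPKM in monomaker (SD, n = 3 each). TAGL1 (Solyc07g055920) was too low for the test.

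As markers of floral organs, the 6 B- and C-class genes with a row summed to between 53.2 and 83.0 FPKM in compound raceme and, in monomaker, to between 40.5 and 56.2 FPKM, most of it TM6. Without TM6 the other 5 summed to between 2.85 and 4.13 FPKM in compound raceme and, in monomaker, to between 9.34 and 15.3 FPKM. TPI, TAP3 and TPIB thus had lower values beside the SEPALLATA class while TM6 and TAG1 did not, and the part of floral tissue in the class's lower values was not tested.

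In the remaining MADS-box genes the values went different ways and none was called by limma. The SOC1-class gene STM3 (Solyc01g092950), a flowering regulator, had 38.18, 44.91 and 41.87 FPKM in compound raceme 1 to 3, against 26.24, 22.03 and 29.72 FPKM in monomaker 1 to 3 (log2 fold change 0.67, limma adjusted p = 0.0696). FUL1 (Solyc06g069430), at 29.9 ± 11.0 FPKM in compound raceme, against 17.4 ± 5.38 FPKM in monomaker, and TM3 (Solyc01g093965), at 20.8 ± 6.25 FPKM in compound raceme, against 17.1 ± 4.41 FPKM in monomaker, overlapped (SD, n = 3 each).

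J (Solyc11g010570), a MADS-box gene that with J2 is known for the pedicel joint, had 31.4 ± 3.76 FPKM in compound raceme, against 30.2 ± 3.24 FPKM in monomaker (SD, n = 3 each). Its log2 fold change was 0.05, with an unadjusted 95% confidence interval of -0.31 to 0.41. Below the minimum for the test were AGL6 (Solyc01g093960), of the gene group closest to the SEPALLATA class, and MBP10 (Solyc02g065730), a FRUITFULL-class gene. AGL6 had 0.70, 0.60 and 0.93 FPKM in compound raceme 1 to 3, against 1.33, 0.97 and 0.94 FPKM in monomaker 1 to 3. MBP10 showed listed values of 0, 0.18 and 0.13 FPKM in compound raceme, against 0.96, 0.73 and 1.33 FPKM in monomaker.

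Of 8 regulators of the inflorescence and shoot meristem, 4 were tested. By limma 0 were called in either direction, against 3.27% of all tested loci, which with 4 genes is no result about the list. Their median log2 fold change was -0.58, against 0.04 over all tested loci. The unadjusted limma p was below 0.05 for AN alone, which had lower values, against 14% of all tested loci lower at that p. AN (Solyc02g081670), an F-box gene that promotes floral identity, had lower values in compound raceme without overlap, as had 15.3% of all tested loci. It had 0.05, 0.10 and 0.14 FPKM in compound raceme 1 to 3, against 1.84, 3.50 and 0.70 FPKM in monomaker 1 to 3 (limma adjusted p = 0.0956). In the authors' deposited table AN had a ratio of -3.29 (q = 0.000115), and no other gene of this list reached a q below 0.05. AN too passed the minimum only through its monomaker level. FA (Solyc03g118160), the LEAFY homologue, had 1.12 ± 0.405 FPKM in compound raceme, against 2.02 ± 0.946 FPKM in monomaker (SD, n = 3 each) and overlapped. SP and TMF, which hold back flowering, overlapped as well. S, SFT, WUS and CLV3 were too low for the test, and CLV3, a stem cell marker, was listed at 0 in 5 of 6 libraries. FA, AN, S, WUS and CLV3 together, taken here as meristem markers, summed to between 1.44 and 4.0 FPKM in compound raceme. In monomaker their sum ran from 2.94 to 6.62 FPKM, so the cultivars overlapped. AN, which had lower values in compound raceme, is part of this sum.

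**Figure D4:**
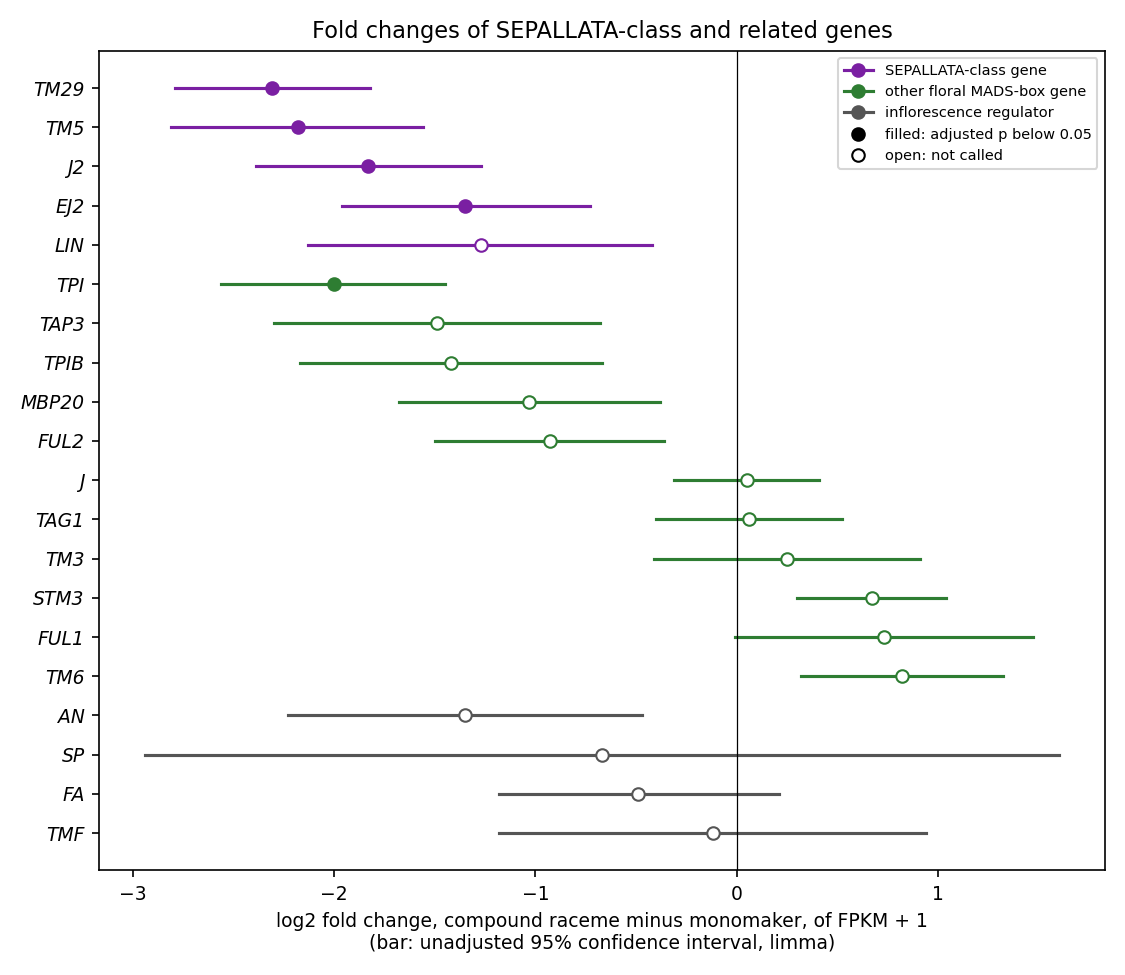
Log2 fold change, compound raceme minus monomaker (x axis), of the tested SEPALLATA-class genes, the other floral MADS-box genes and the inflorescence regulators, with unadjusted 95% confidence intervals from limma; filled points passed the test. The called genes are TM29, TM5, J2, EJ2 and TPI, while STM3, FUL1 and TM6 have the highest fold changes (0.67, 0.73 and 0.82).

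Of 3 genes outside these lists, chosen after their values had been seen, both mitotic kinase genes fell, against 2.52% of all tested loci called lower. Because of that choice, neither this count nor the limma adjusted p of each gene carries weight as a test. CDKB2 (Solyc04g082840) had 17.62, 9.21 and 7.32 FPKM in compound raceme 1 to 3, against 76.91, 127.85 and 98.35 FPKM in monomaker 1 to 3 (log2 fold change -3.10, limma adjusted p = 0.0193). CDKB1 (Solyc10g074720) had 5.79, 5.02 and 3.60 FPKM in compound raceme 1 to 3, against 21.28, 40.55 and 35.04 FPKM in monomaker 1 to 3 (log2 fold change -2.49, limma adjusted p = 0.0193). The Rubisco small subunit gene RBCS1 (Solyc02g063150), a photosynthesis gene, had 638.58, 250.12 and 737.89 FPKM in compound raceme 1 to 3, against 673.42, 3306.13 and 4635.57 FPKM in monomaker 1 to 3, overlapped and was not called (limma adjusted p = 0.153). The part of dividing or green cells in the lower SEPALLATA-class values was not tested.

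By Pearson correlation over the 6 libraries with the mean standardised level of the 5 tested genes, Solyc01g081570 (0.997) and Solyc01g107650 (0.990) had the pattern most like the class among 18797 other tested loci. Neither is named in the sources used here, and the 6 points fall into 2 cultivars. Solyc01g081570 had 18.36, 19.28 and 21.60 FPKM in compound raceme 1 to 3, against 37.19, 31.77 and 35.01 FPKM in monomaker 1 to 3. Of the listed genes, TPI came closest at rank 108 (0.939), followed by FUL2 at rank 332 (0.904). On deviations from the cultivar means the coefficient was -0.343 for TPI, 0.558 for FUL2 and 0.936 for Solyc01g081570. The last is no separate check, since that locus was picked for its likeness over the same 6 libraries.

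The SEPALLATA-class calls did not hold when compound raceme 2 or 3 or monomaker 2 or 3 was left out, which also leaves 2 libraries against 3. Each of these fits called 0 SEPALLATA-class genes in limma, with adjusted p of 0.0716 to 0.0942 for TM29, 0.0752 to 0.0944 for TM5, 0.0716 to 0.101 for J2 and 0.0939 to 0.180 for EJ2. They called 6, 7, 8 and 15 of all loci, against 614 with all libraries. All 5 tested genes had an unadjusted limma p below 0.05 in each, as had 15.1% to 20.8% of all tested loci. Without compound raceme 1 the genes called were TM29, TM5 and J2, with EJ2 at a limma adjusted p of 0.0787, and without monomaker 1 all 4 were called, beside 2041 of all loci. The fold changes of TM29, J2, EJ2, TM5 and LIN were below 0 in each of the 16 alternatives.

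**Figure D5:**
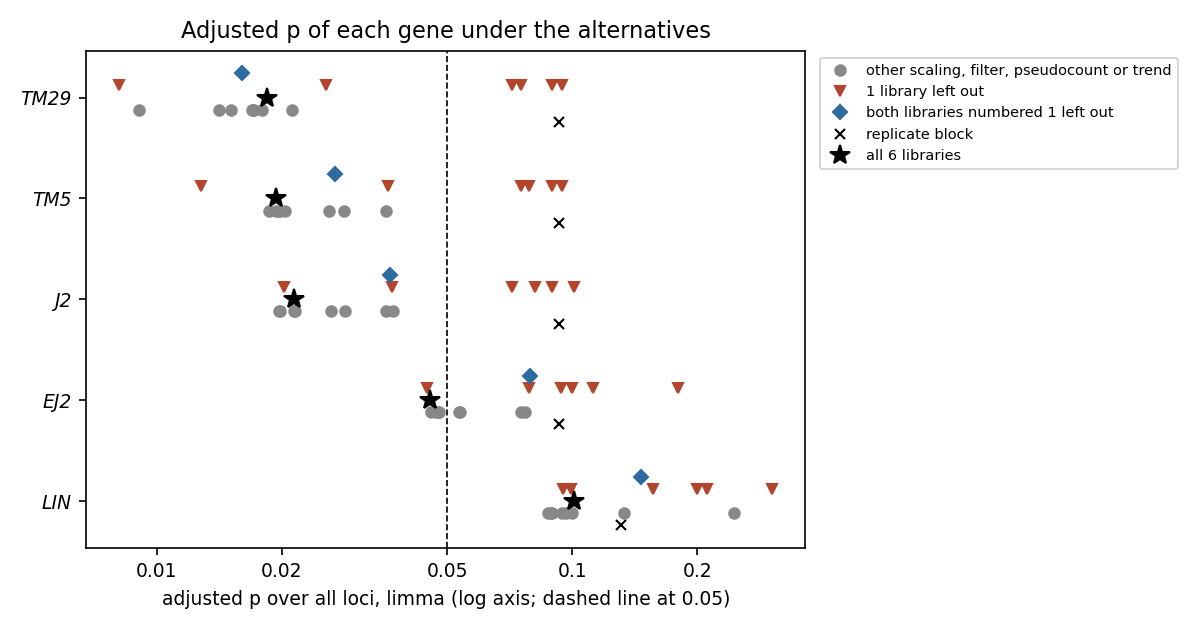
Adjusted p from limma (x axis, log scale; dashed line at 0.05) of the 5 tested SEPALLATA-class genes with all 6 libraries (star) and under 16 alternatives. TM29, TM5 and J2 cross the line where compound raceme 2 or 3 or monomaker 2 or 3 is left out and with the replicate block, EJ2 lies at 0.0454 with all libraries, and LIN lies right of the line throughout.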

How the data were processed

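RNA was extracted with Trizol and sequenced from BGI500 libraries, per the labels' protocols. DESeq2 1.4.5, RSEM 1.2.12, HISAT2 2.0.4 and Bowtie2 2.2.5 are named, without a role, per the submitters' processing notes. The authors deposited FPKM values for 6 libraries, and a log2 ratio, p-value and q-value for each row, per the file headers. The test behind these, the annotation release, use of strand and any scaling between libraries are not given in the sources used here. FPKM depends on the library total, so abundant genes can shift others.

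The FPKM of both rows of a locus was summed (5699 loci have 2). The test planned for counts does not suit FPKM, so loci averaging at least 1 FPKM were tested as log2(FPKM + 1). The test was limma (version 3.58.1, R 4.3.3), its variance following an intensity trend, with the cultivar as only term and Benjamini-Hochberg adjustment. The fit was also run on simulated data, with independent noise that depended on a locus's level alone. That run does not cover spread particular to a gene or likeness between libraries. Shares and differences between genes were tested by exact permutation of libraries.

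Members and lists were chosen with earlier results of these data known. All 6 members, every called gene of the lists, those a comparison turns on and the 2 unnamed loci most like the members are named. Names are recalled locus assignments, each checked against the gene order of RefSeq (SLM_r2.1); all 6 members passed within 0.05 of a chromosome's genes. The tolerance was widened to 0.1 for the other genes after seeing which passed. 1 pair, for MC (Solyc05g056620), lay elsewhere and was left out of the list's counts and median. That locus had 4.02, 4.12 and 4.43 FPKM in compound raceme 1 to 3, against 16.82, 6.98 and 11.06 FPKM in monomaker 1 to 3. It was not called (log2 fold change -1.21, limma adjusted p = 0.0726), and the authors' deposited q was 0.00166. TPIB, STM3, TM3, TMF and RBCS1 have no symbol in RefSeq. The loci taken as AGL11 and MBP3 have no row in the deposited table, so they were not analysed here. Planned cell cycle and photosynthesis lists were not used here. Alternatives covered pseudocount, filter, scaling, trend, rows, replicate block and left-out libraries.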

Additional observations from a re-analysis of the deposited data

How the results depend on the processing

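With all libraries, the SEPALLATA-class genes called lower numbered 4, and 3 or 4 under each alternative of pseudocount, filter, scaling, trend and rows and without both libraries numbered 1. EJ2 lost its call in 5 of those: without a filter, with quantile normalization, with median scaling, with the rows as deposited and without both libraries numbered 1. With 1 library left out the count ran from 0 to 4. With the replicate block it was 0, where limma called 0 of all loci at an adjusted p below 0.05 and 4676 at an unadjusted p below 0.05. Same-numbered libraries did not deviate together (correlations of 0.028, 0.058 and 0.103 for numbers 1 to 3), so the numbers are not taken as pairs.

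In the floral MADS list the count called lower, 1 with all libraries, was 2 with a pseudocount of 0.1, 2 without a filter, 0 with the replicate block and 0 to 2 with 1 library left out; the count called higher was 1 without both libraries numbered 1. The fold changes of J, TAG1, TMF and SP, none of them called, changed sign with 1 library left out. They ran from -0.04 to 0.13 for J, from -0.05 to 0.14 for TAG1 and from -0.48 to 0.29 for TMF. That of SP, -0.67 with all libraries, ran from -1.26 to 0.38. Without both libraries numbered 1, TMF had 0.57 and SP 0.96. The difference of fold changes TM29 minus TM5 was 1.09 with a pseudocount of 0.1, 0.07 with 0.5 and -0.25 to 0.12 with 1 library left out. EJ2 minus LIN was 0.32, 0.08 and -0.44 to 0.12 in the same settings. The alternatives for differences between genes, and leaving out both libraries numbered 1 for shares, were chosen after seeing the data. The causes were not tested. Differences in share kept their direction in each alternative run. Values of 0 cannot be told from low expression, because the depth is unknown.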
